A study of Mus musculus with 28 samples.

Results

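The ligands and receptors of the 4 classical axon guidance systems were described across neural stem cells (NSCs) of the brain, peripheral NSCs (pNSCs), neural crest stem cells (NCSCs) and whole tissue cells. Members were all rows of the gene table whose symbols belong to the ephrins (*Efna*, *Efnb*), Eph receptors (*Epha*, *Ephb*), semaphorins (*Sema*), plexins (*Plxn*), neuropilins (*Nrp1*, *Nrp2*), Slits, Robos, netrins (*Ntn*), Unc5 receptors or *Dcc*. This gave 69 of 28244 genes: 22 of the ephrin–Eph system, 31 of the semaphorin–plexin–neuropilin system, 7 of the Slit–Robo system and 9 of the netrin–Dcc–Unc5 system, or 35 ligands and 34 receptors. The rule used symbols and no expression value, though it was set with earlier results of these data known.

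Gene expression was measured by polyA RNA-seq in 28 samples of 11 groups, with the strain given as C57BL/6 in the labels, whereas the methods describe wild-type mice of other backgrounds. The first set has 2 samples each of Brain-NSC, Tail-pNSC, Lung-pNSC, Tail and Lung, and its labels name no mouse line. These groups match the study's Nes-GFP experiment with 2 replicates, whose pNSCs came from adult lung and postnatal tail, but the labels do not state this. Tail-pNSC and Lung-pNSC may thus differ in age. Whether the tail and lung cells had been cultured is not given in the sources used here. The Wnt1Cre-mTmG set has 3 samples each of brain NSCs, tail pNSCs and dorsal root ganglion (DRG) pNSCs from mice in which Cre, driven by *Wnt1*, marks neural crest descendants with GFP and leaves other cells with Tomato, and 3 of DRG NCSCs. The source of the sequenced NCSCs is not certain, since the study describes NCSCs of adult wild-type mice where it stains them, while its protocol lists DRG cells as postnatal. These tail and DRG pNSCs were Tomato-positive and GFP-negative and came from postnatal tissue (about day 1 to 5, with adult meaning about 4 to 6 weeks). The Sox2-GFP set has 3 samples each of brain NSCs and of lung pNSCs grown from GFP-positive cells of postnatal lung. It is compared with the same 2 Lung samples, which may be of another age. Each pNSC line grew from a manually picked cluster, mostly clonal, in NSC medium with EGF and bFGF, so that a group may be a single line. The study calls the samples of a group biological replicates but does not say whether they are separate animals, clones or cultures, and p-values measure only the spread between these samples.

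Axon guidance proteins steer growing axons and migrating cells. Ephrins are membrane-bound and signal to Eph receptor tyrosine kinases, class 3 semaphorins are secreted and act through neuropilin and plexin complexes, other semaphorins bind plexins directly, Slits repel through Robo receptors, and netrins attract through Dcc and repel through Unc5 receptors. NSCs are known to use several of these systems during migration and positioning, and neural crest cells follow ephrin and semaphorin cues on their way out of the neural tube. The same proteins pattern blood vessels, lung epithelium and skin.

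The 250 bases before the RefSeq start (GRCm38.p6) are shown for 4 members that set the groups apart: *Ephb1* and *Epha4*, which were higher in brain NSCs than in NCSCs, and *Sema3e* and *Sema4f*, which were higher in NCSCs. All 4 windows lie outside annotated exons of their gene and read 5′ to 3′ on the gene's strand with CG dinucleotides in capitals. They are at chr9:102354694-102354943 (minus strand, *Ephb1*, 10 CG), chr1:77515089-77515338 (minus strand, *Epha4*, 14 CG), chr5:14025026-14025275 (plus strand, *Sema3e*, 7 CG) and chr6:82939770-82940019 (minus strand, *Sema4f*, 4 CG).
Ephb1: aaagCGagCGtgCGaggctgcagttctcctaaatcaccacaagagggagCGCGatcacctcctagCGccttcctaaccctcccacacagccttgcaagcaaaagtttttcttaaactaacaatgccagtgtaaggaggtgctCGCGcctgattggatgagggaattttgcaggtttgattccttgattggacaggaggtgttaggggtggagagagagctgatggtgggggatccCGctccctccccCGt
Epha4: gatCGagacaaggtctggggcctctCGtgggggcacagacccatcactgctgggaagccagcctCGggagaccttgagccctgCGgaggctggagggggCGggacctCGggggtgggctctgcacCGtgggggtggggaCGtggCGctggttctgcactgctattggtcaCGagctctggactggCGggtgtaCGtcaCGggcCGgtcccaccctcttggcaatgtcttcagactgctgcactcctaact
Sema3e: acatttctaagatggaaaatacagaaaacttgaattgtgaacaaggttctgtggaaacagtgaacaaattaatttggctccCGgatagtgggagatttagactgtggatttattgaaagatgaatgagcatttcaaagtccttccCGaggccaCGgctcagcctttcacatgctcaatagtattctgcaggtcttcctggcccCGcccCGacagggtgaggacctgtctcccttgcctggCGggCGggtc
Sema4f: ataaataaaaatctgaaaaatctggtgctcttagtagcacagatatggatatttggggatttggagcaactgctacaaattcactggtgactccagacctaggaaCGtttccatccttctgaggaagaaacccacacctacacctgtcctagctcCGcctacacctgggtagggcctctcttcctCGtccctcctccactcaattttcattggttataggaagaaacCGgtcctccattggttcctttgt
RefSeq held 75 such windows for 59 of the 69 members, with a median of 15 CG and 64.4% G or C, against 6 CG and 52.4% in the 32851 windows of all genes. *Ephb1*, *Sema3e* and *Sema4f* were below the median of the members in both, and *Epha4* was just below it in CG. A core motif of SOX factors, AACAAT or AACAAA on either strand, was in 12% of the members' windows and in 24.9% of all windows. *Ephb1* and *Sema3e* held 1 match each. A match describes the letters only.

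The total per sample ran from 9808246 to 22637031 counts, and 3 counts, taken as the smallest detectable amount, stood for 0.131 to 0.294 CPM, the count per unit of library size after scaling by the trimmed mean of M values. Wnt1Cre-mTmG brain NSC and DRG pNSC libraries were shallower (9808246 to 11431445 counts) than the other libraries of their set (17051461 to 22548268). The mean squared difference between replicates was 1.09 to 2.85 times that expected from counting error alone. Between DRG NCSC replicate 3 and the other NCSC samples it was 17.1 and 21.3 times. The summed level of 5 NSC markers (*Sox2*, *Nes*, *Olig2*, *Pax6*, *Sox1*) was 2221 to 3501 CPM in the 8 NSC and pNSC groups, 1383 to 1753 CPM in NCSCs, 80.4 to 84.4 CPM in Tail and 285 to 308 CPM in Lung. In NCSCs, Tail and Lung most of this sum was *Nes* (means of 1295, 75.3 and 282 CPM). *Sox2* had a mean of 227 CPM in NCSCs. *Olig2* was at 12.2 to 16.4 CPM there, against 1090 to 1125 CPM in Wnt1Cre-mTmG brain NSCs. *Pax6* and *Sox1* had means of 0.310 and 0.145 CPM in NCSCs, against 33.3 and 44.8 CPM in those brain NSCs. In Tail and Lung, *Olig2*, *Pax6* and *Sox1* each had a mean under 1 CPM. The summed level of 6 neural crest and Schwann cell markers was 3387 to 3504 CPM in NCSCs and 8.81 to 139 CPM in the NSC and pNSC groups. Each of the 5 NSC markers had a mean of at least 1 CPM in all 8 NSC and pNSC groups.

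Most guidance genes were expressed in all NSC and pNSC lines, in brain and periphery alike. A member was called detected in a group when every sample reached 1 CPM: 50 to 55 members were detected in the 3 brain NSC groups, 51 to 58 in the 5 pNSC groups, 60 in NCSCs, 61 in Tail and 57 in Lung. In all, 48 members were detected in each of the 8 NSC and pNSC groups and 41 in each of the 11 groups. *Epha6*, *Epha8* and *Epha10* (named for this count after their values were seen) were detected in no group. Per kilobase of exon, the semaphorin receptor *Plxnb2* and the attractant *Ntn1* were the highest 2 members in each of the 8 NSC and pNSC groups: *Plxnb2* stood at 49.4 to 97.1 and *Ntn1* at 48.2 to 115.8 CPM per kilobase (group means). Another order held in the other groups, with *Plxnb3* leading in NCSCs (76.3 ± 2.19 CPM per kilobase, SD, n = 3), *Plxnb2* in Tail (56.6 ± 1.44, SD, n = 2) and *Sema3g* in Lung (97.5 ± 2.55, SD, n = 2).

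**Figure D1:**
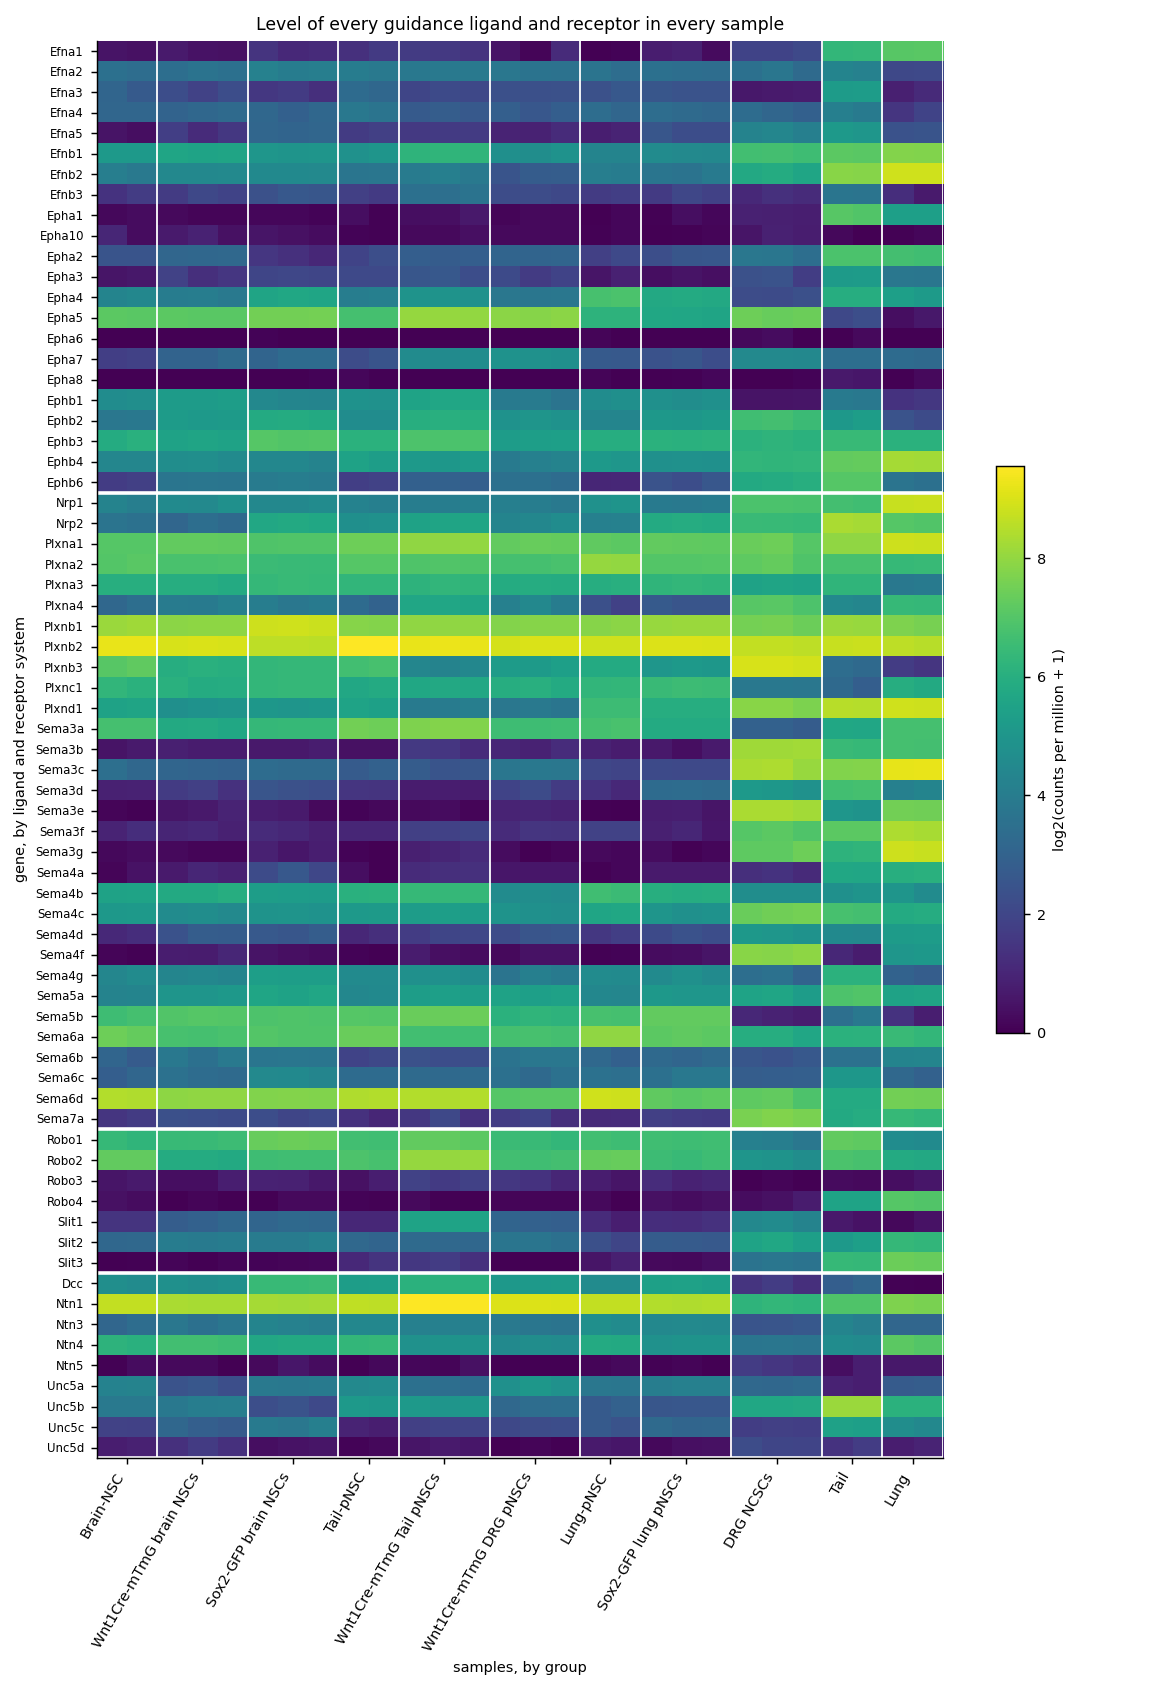
Level of all 69 members (rows, by system) in all 28 samples (columns, by group), as log2(CPM + 1) in colour, with white lines between groups and systems. The NSC and pNSC columns look alike for most genes, while *Sema3b* to *Sema3g* are higher in the NCSC, Tail and Lung columns, and *Sema5b* is lower.

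Over those 48 members, the highest of the 8 group means was a median of 3.84 times the lowest. The plexins *Plxna3* and *Plxnc1*, the ephrin *Efna2* and *Plxnb2* were the 4 that varied by less than 2-fold, and *Epha7*, *Ephb6* and *Plxna4* the 3 that varied by more than 10-fold (*Plxna3*, *Plxnc1* and *Efna2* were named after their values were seen). *Plxnb2* lay between 382 CPM in Sox2-GFP brain NSCs and 749.8 CPM in Tail-pNSC as group means. *Plxna4*, a plexin that serves class 3 and class 6 semaphorins, lay between 3.28 CPM in Lung-pNSC and 48.4 CPM in Wnt1Cre-mTmG tail pNSCs.

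Members were compared between groups with edgeR's quasi-likelihood test fitted to all genes of a set, and counted as called where the Benjamini–Hochberg adjusted p was under 0.05 and the log2 fold change was 1 or more in size. Of the 69 members, 66 passed the filter on low counts in each set. The question of the brain comparisons is how far pNSCs of each tissue resemble brain NSCs. In Tail-pNSC against Brain-NSC, 8 members were higher and 5 lower, where 4.31% and 6.59% of all genes tested were called in these directions. In Lung-pNSC against Brain-NSC, 7 were higher and 7 lower (4.56% and 4.15% of all genes). In Sox2-GFP lung pNSCs against Sox2-GFP brain NSCs, 4 were higher and 13 lower (5.76% and 9.99%). In Wnt1Cre-mTmG tail pNSCs against brain NSCs of that line, 20 were higher and 8 lower (9.16% and 9.05%), and in DRG pNSCs 4 were higher and 8 lower (3.12% and 6.41%). As shares of the 66 tested, these ranged from 6.06% to 30.3% higher and from 7.58% to 19.7% lower, and the share higher in Sox2-GFP lung pNSCs and that lower in Tail-pNSC stood near those of all genes. The highest share called higher was that of the Wnt1Cre-mTmG tail line. There 7 fibroblast markers summed to 426 to 437 CPM against 33.5 to 34.6 CPM in its brain NSCs. Summed markers of neurons (74.4 to 77.7 against 39.7 to 43.2 CPM) and muscle (41.6 to 43.2 against 9.07 to 11.5 CPM) were higher too. Within the neuron list, *Elavl4* (means of 47.0 against 11.3 CPM), *Rbfox3* and *Stmn2* were higher. The neuron markers *Elavl3* (15.8 against 21.7 CPM), *Snap25* and *Syt1* were lower. Only 1 of the 5 muscle markers had a mean of at least 1 CPM in each group. Summed markers of neural crest and Schwann cells (23.9 to 26.8 against 34.6 to 38.8 CPM) and of leukocytes were lower, though *Ngfr* was higher (means of 3.58 against 0.537 CPM). The part of any such cells in the result was not tested.

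NCSCs and whole tissue differed more, among members as among all genes. In NCSCs against Wnt1Cre-mTmG brain NSCs, 29 members were higher and 17 lower (22.1% and 14.8% of all genes), and without NCSC replicate 3 the counts were 29 and 16. Tail pNSCs of the Wnt1Cre-mTmG line had 18 members higher and 24 lower than NCSCs (15.3% and 22.6%, or 18 and 23 members without that library). DRG pNSCs had 15 higher and 31 lower (15.1% and 23.3%, or 15 and 29 without it). Against the tissue, Tail-pNSC had 13 members higher and 39 lower than Tail (14.1% and 32.6%), Lung-pNSC had 22 higher and 33 lower than Lung (20.2% and 34.9%), and Sox2-GFP lung pNSCs had 18 higher and 34 lower (21.3% and 34.9%). Median log2 fold changes over the members tested against tissue were -1.98, -0.999 and -1.04 in that order (-1.95, -0.999 and -1.04 with genes at or under 3 counts set to their bound), where those over all genes tested were -0.16, -0.15 and -0.12. Among the ligands, 24, 20 and 19 of 35 were lower than in tissue, and among the receptors 15, 13 and 15 of the 31 tested.

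**Figure D2:**
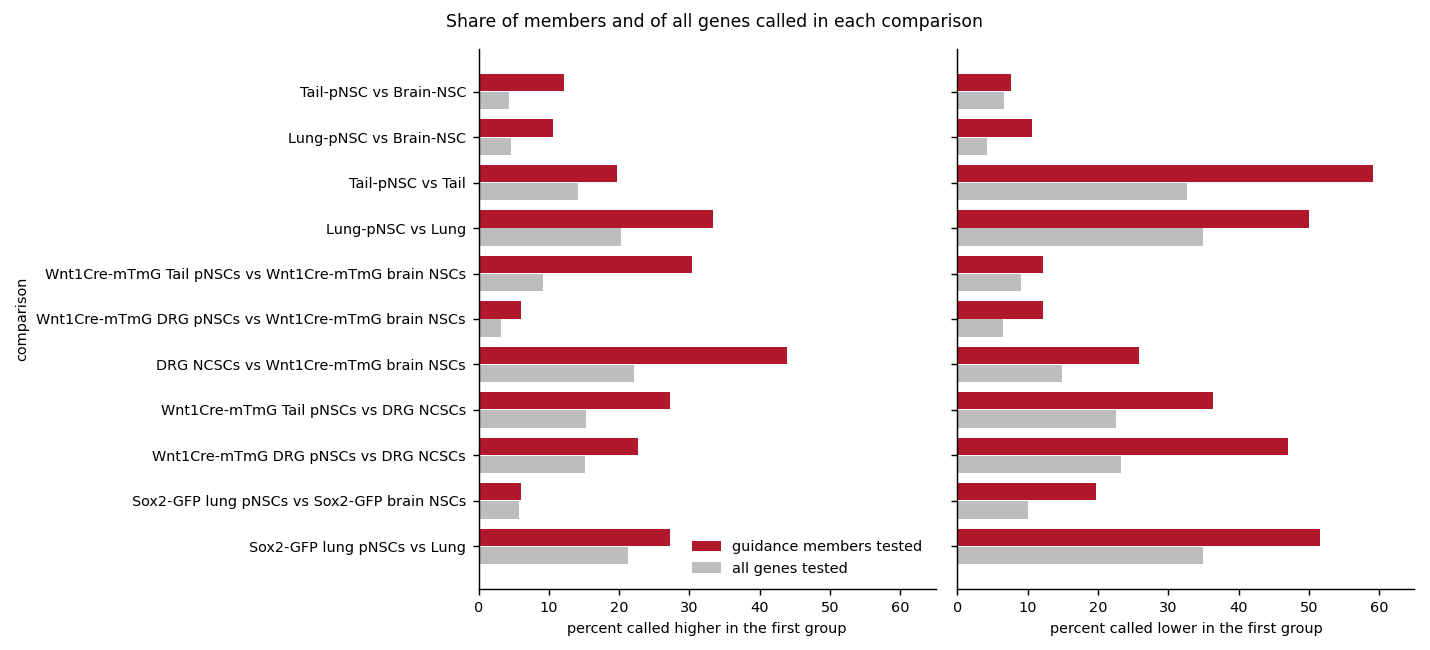
Percent of the 66 members tested (red) and of all genes tested (grey) that were called higher (left) or lower (right) in the first group of each comparison. The members' bars range from 6.06% to 43.9% higher and from 7.58% to 59.1% lower, and each is longer than the grey bar beside it.

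Tail and Lung hold other cell types, so each tissue comparison sets cultured stem cells against a mixture. Summed markers of fibroblasts were 72403 to 73843 CPM in Tail, 4409 to 4505 CPM in Lung and 7.34 to 437 CPM in the NSC and pNSC groups. Summed markers of endothelium (6 genes) were 995 to 1017 CPM in Tail, 4479 to 4554 CPM in Lung and 1.28 to 8.23 CPM in NSC and pNSC groups. Those of epithelium (6 genes) were 4166 to 4237 CPM in Tail, 24802 to 25302 CPM in Lung and at most 0.754 CPM in NSC and pNSC groups, with *Krt14*, *Krt5* and *Scgb1a1* at 0 in all of these. Their part in the tissue results was not tested, and in bulk samples fewer cells of a type and less RNA per cell cannot be told apart.

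In the semaphorin–plexin–neuropilin system, class 3 semaphorins, the secreted ligands, gave a wide split between groups. Of 7 class 3 genes, 6 (all except *Sema3a*) were higher in NCSCs than in brain NSCs and lower in tail and DRG pNSCs than in NCSCs. The same 6 genes were lower in each of the 3 pNSC groups compared with their tissue. The median log2 fold change of the 7 genes was 7.03 in NCSCs against brain NSCs, -7.18 in Tail-pNSC against Tail and -7.10 in Lung-pNSC against Lung. Between pNSCs and brain NSCs their medians lay between -0.45 and 1.23. In Wnt1Cre-mTmG tail pNSCs, however, 4 of the 7 were called higher and 2 lower (57.1% and 28.6%, against 9.16% and 9.05% of all genes). Log2 fold changes there ran from -1.90 to 2.97. In each other comparison of pNSCs with brain NSCs, at most 1 was called higher and at most 2 lower, beside the shares of all genes given above. Summed markers of most other cell types listed, though not of muscle, were also higher in NCSCs than in Wnt1Cre-mTmG brain NSCs. Their summed levels were 2972 to 3611 against 33.5 to 34.6 CPM for fibroblasts, 336 to 377 against 39.7 to 43.2 CPM for neurons, 78.3 to 87.01 against 1.87 to 2.80 CPM for leukocytes and 26.3 to 31.6 against 3.38 to 3.57 CPM for endothelium. Summed muscle markers were lower in NCSCs, at 5.27 to 6.17 against 9.07 to 11.5 CPM. So was *Pdgfra* of the fibroblast list (means of 16.3 against 22.4 CPM), and *Stmn2* held 250 CPM of the neuron sum in NCSCs (mean). The part of these cell types in the NCSC results was not tested.

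*Sema3e*, a ligand of plexin D1 that repels vessels, was at 325, 319 and 302 CPM in NCSCs, 31.3 and 28.8 CPM in Tail, and 181 and 179 CPM in Lung. All 21 NSC and pNSC samples held at most 0.981 CPM. The groups did not overlap, with a log2 fold change of 8.89 (SE 0.0962, adjusted p = 2.36e-21) in NCSCs against brain NSCs and of -10.78 (SE 0.101, adjusted p = 5.31e-22) in Wnt1Cre-mTmG tail pNSCs against NCSCs. Tail-pNSC, at or under 3 counts in both samples, was at least 184-fold lower than Tail, and Lung-pNSC at least 1162-fold lower than Lung.

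*Sema3g*, which acts through neuropilin 2, was at 145, 145 and 171 CPM in NCSCs, 71.3 and 74.6 CPM in Tail, and 451 and 435 CPM in Lung. In pNSCs it was at 0.797, 0.978 and 1.27 CPM in the Wnt1Cre-mTmG tail line and at most 0.254 CPM in the other 4 groups. It was thus near the limit of detection in pNSCs, and the DRG line stood at least 552-fold lower than NCSCs. *Sema3c*, a cue for vessels and for migrating neural crest, kept a level of 2.86 to 13.04 CPM in the 21 NSC and pNSC samples, against 322, 330.0 and 272 CPM in NCSCs, 214 and 221 CPM in Tail, and 594 and 595 CPM in Lung. Its log2 fold change was -5.92 (SE 0.0879, adjusted p = 9.73e-20) in Wnt1Cre-mTmG tail pNSCs against NCSCs. In DRG pNSCs it was -4.59 (SE 0.0848, adjusted p = 2.20e-18).

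The exception was *Sema3a* (named after its values were seen), the prototype repellent of sensory axons. Its group means were 54.2 to 105 CPM in brain NSCs and 56.3 to 214 CPM in pNSCs, against 6.55 ± 0.533 CPM in NCSCs (SD, n = 3). It was lower in NCSCs than in brain NSCs by a log2 fold change of -3.04 (SE 0.0641, adjusted p = 1.35e-17). In DRG pNSCs it was higher than in NCSCs by 3.87 (SE 0.0606, adjusted p = 2.36e-19). It was thus the class 3 gene that moved the other way in the NCSC comparisons.

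**Figure D3:**
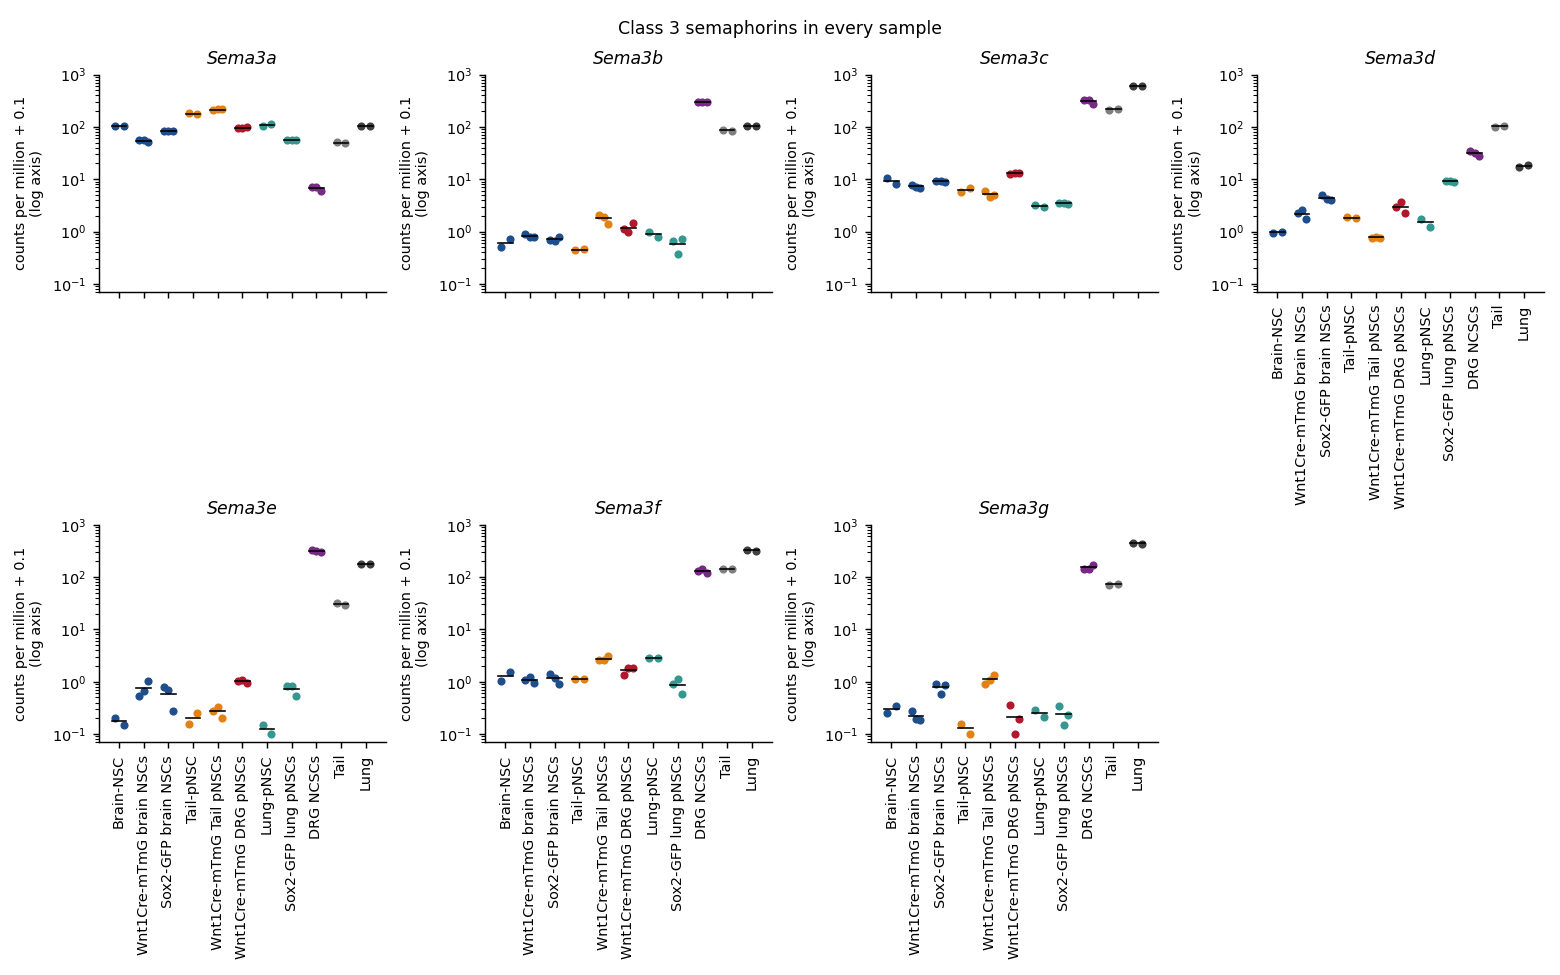
Level of the 7 class 3 semaphorins in each sample (points; lines are group means) as CPM + 0.1 on a log axis, by group. The other 6 genes stand higher in NCSCs and in Lung than in NSCs and pNSCs, and *Sema3a* is lowest in NCSCs.

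Membrane-bound semaphorins split in both directions. *Sema5b*, a transmembrane repellent, was at 66.8 to 170.1 CPM in the 21 NSC and pNSC samples. In NCSCs it was at 1.07, 0.905 and 0.705 CPM, in Tail at 10.2 and 13.2 CPM, and in Lung at 1.65 and 0.732 CPM. No sample of these 3 groups reached the lowest NSC or pNSC sample. Its log2 fold change was -7.12 (SE 0.0899, adjusted p = 1.40e-20) in NCSCs against brain NSCs and 6.28 (SE 0.0964, adjusted p = 1.88e-19) in DRG pNSCs against NCSCs. *Sema4f*, a class 4 transmembrane semaphorin, moved the other way, with 233, 226 and 241 CPM in NCSCs and at most 1.01 CPM in NSC and pNSC samples. Lung cells held 31.8 and 33.4 CPM and Tail cells 1.12 and 0.638 CPM, so that *Sema4f* was high in Lung but not in Tail. *Sema4a* was at 50.7 and 49.3 CPM in Tail and 62.5 and 66.8 CPM in Lung, at no more than 5.22 CPM in NSC and pNSC samples, and at 1.18 to 1.67 CPM in NCSCs.

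*Sema6b*, a class 6 semaphorin of axons, was lower than in brain NSCs in both tail lines. It was at 2.78 and 3.16 CPM in Tail-pNSC against 7.57 and 5.75 CPM, and at 3.77 to 4.21 CPM in the Wnt1Cre-mTmG tail line against 10.6 to 13.4 CPM. These are log2 fold changes of -1.18 (SE 0.184, adjusted p = 7.66e-10) and -1.67 (SE 0.120, adjusted p = 1.36e-09). The first fell short of the fold threshold, at -0.97, without Brain-NSC replicate 1.

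Of the receptors, plexin B3, which binds Sema5a, was highest in NCSCs. *Plxnb3* was at 499, 507 and 479.7 CPM there, against 61.2, 66.5 and 62.4 CPM in Wnt1Cre-mTmG brain NSCs (log2 fold change 2.96, SE 0.0504, adjusted p = 7.38e-19). Its level was lower in pNSCs than in brain NSCs in 3 comparisons: by a log2 fold change of -1.71 (SE 0.0593, adjusted p = 7.28e-14) in Wnt1Cre-mTmG tail pNSCs, -1.34 (SE 0.0510, adjusted p = 2.17e-149) in Lung-pNSC and -1.28 (SE 0.0422, adjusted p = 6.31e-199) in Sox2-GFP lung pNSCs. Tail and Lung cells held 9.60 and 8.55 CPM and 2.28 and 1.77 CPM, less than any NSC or pNSC sample. *Plxna4* was at 134, 138 and 119 CPM in NCSCs and 14.6, 14.4 and 17.1 CPM in brain NSCs (log2 fold change 3.07, SE 0.0878, adjusted p = 1.01e-15). It was lower in both lung lines than in their brain NSCs, by -1.45 (SE 0.156, adjusted p = 2.88e-19) and -1.46 (SE 0.0953, adjusted p = 3.33e-52), and higher in the Wnt1Cre-mTmG tail line by 1.63 (SE 0.0928, adjusted p = 5.97e-11).

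*Nrp2*, the co-receptor of Sema3c, Sema3f and Sema3g, was higher in the pNSCs of tail and DRG than in their brain NSCs. In the first set it was at 25.95 and 27.5 CPM in Tail-pNSC against 11.9 and 10.8 CPM in Brain-NSC (log2 fold change 1.21, SE 0.0826, adjusted p = 3.56e-47). In the Wnt1Cre-mTmG line it was at 44.5, 47.3 and 47.7 CPM in tail pNSCs and 18.8, 20.2 and 24.2 CPM in DRG pNSCs, against 7.84, 9.93 and 8.60 CPM in brain NSCs. These are log2 fold changes of 2.39 (SE 0.0919, adjusted p = 2.84e-13) and 1.26 (SE 0.108, adjusted p = 4.20e-08). In the lung lines it was not called against brain NSCs, at 17 and 17.2 CPM in Lung-pNSC and 56.9, 60.1 and 55.96 CPM in Sox2-GFP lung pNSCs, whose brain NSCs held 51.5, 54.3 and 51.1 CPM. The log2 fold changes there were 0.57 (SE 0.090) and 0.16 (SE 0.039), under the fold threshold of 1. All these samples were below those of NCSCs (88.1, 84.8 and 82.9 CPM), Lung (131 and 124 CPM) and Tail (322 and 307 CPM).

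In the ephrin–Eph system, tissue and NCSCs also stood apart from NSCs. *Ephb1*, a receptor of B-class ephrins known from retinal axons, was at 11.7 to 49.3 CPM in the NSC and pNSC samples and at 0.420, 0.429 and 0.470 CPM in NCSCs. Lung held 1.65 and 1.95 CPM, whereas Tail held 13.8 and 13.3 CPM, within the range of the pNSC samples. The log2 fold change was -6.41 (SE 0.129, adjusted p = 7.72e-18) in NCSCs against brain NSCs and 4.92 (SE 0.160, adjusted p = 5.93e-15) in DRG pNSCs against NCSCs. DRG pNSCs themselves, at 14.1, 14.6 and 11.7 CPM, were below their brain NSCs at 37.3, 37.03 and 38.6 CPM (log2 fold change -1.48, SE 0.0792, adjusted p = 8.93e-11). *Epha5*, a receptor of A-class ephrins in forebrain axons, was at 46.8 to 263 CPM in NSC and pNSC samples, 161 to 173 CPM in NCSCs, 3.18 and 3.95 CPM in Tail, and 0.265 and 0.549 CPM in Lung. It was thus high in neural cells of both kinds, and its log2 fold changes against tissue were 4.80 (SE 0.0922) in Tail-pNSC, 7.41 (SE 0.147) in Lung-pNSC and 6.87 (SE 0.140) in Sox2-GFP lung pNSCs.

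*Epha4*, a receptor of ephrins of both classes, varied with the line. It was at 109 and 113 CPM in Lung-pNSC against 19.1 and 20.6 CPM in Brain-NSC (log2 fold change 2.46, SE 0.0656, adjusted p = 2.69e-301), while Sox2-GFP lung pNSCs held 53.7, 56.2 and 53.8 CPM and Sox2-GFP brain NSCs 46.3, 50.1 and 48.5 CPM. NCSCs held 3.64, 3.53 and 4.06 CPM, below every other sample. *Epha7*, which can repel axons that carry A-class ephrins, was higher in tail (22.7 to 24.4 CPM) and DRG pNSCs (26.04 to 27.9 CPM) of the Wnt1Cre-mTmG line than in brain NSCs (7.13 to 8.94 CPM), with log2 fold changes of 1.58 (SE 0.0860, adjusted p = 3.31e-11) and 1.80 (SE 0.0898, adjusted p = 3.58e-11). NCSCs lay at 21.1 to 21.5 CPM, next to these pNSCs. *Epha3*, a receptor of A-class ephrins, was higher in both tail lines than in their brain NSCs, at 3.30 and 3.36 against 0.451 and 0.532 CPM (log2 fold change 2.72, SE 0.320, adjusted p = 1.89e-16) and at 3.81 to 5.26 against 1.45 to 2.67 CPM (1.21, SE 0.260, adjusted p = 0.000574). It was lower in Sox2-GFP lung pNSCs, at 0.285 to 0.415 against 2.96 to 3.13 CPM (-3.13, SE 0.274, adjusted p = 1.44e-29).

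Several members of this system were high in tissue. *Epha1*, a receptor of epithelia, was at 133 and 123 CPM in Tail and 41.2 and 40.7 CPM in Lung and at no more than 0.840 CPM in any other sample. *Epha2*, another epithelial receptor, was at 116 and 115 CPM in Tail and 102 and 97.03 CPM in Lung, against 1.10 to 8.26 CPM in NSC and pNSC samples. *Efna1*, an ephrin of endothelium and epithelium, was at 79.4 and 82.03 CPM in Tail and 133 and 139 CPM in Lung, and did not exceed 2.12 CPM in NSC and pNSC samples. At these low levels *Efna1* was higher in both tail lines than in brain NSCs. Its values were 1.51 and 2.09 against 0.401 and 0.339 CPM (log2 fold change 2.25, SE 0.374, adjusted p = 9.15e-09) and 1.73 to 2.12 against 0.337 to 0.624 CPM (2.09, SE 0.414, adjusted p = 0.000270). It was lower in both lung lines, at least 2.38-fold in Lung-pNSC, where both samples held at most 3 counts, and by a log2 fold change of -1.18 (SE 0.281, adjusted p = 5.99e-05) in Sox2-GFP lung pNSCs. The lung calls were lost without Lung-pNSC replicate 1 (adjusted p = 0.0566) and without Sox2-GFP lung pNSC replicate 3 (log2 fold change -0.77).

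*Ephb6*, a receptor without kinase activity, was lower in both lung lines, at 1.04 and 1.06 against 2.26 and 2.51 CPM and at 3.74 to 5.10 against 14.6 to 15.4 CPM, with log2 fold changes of -1.20 (SE 0.276, adjusted p = 6.46e-05) and -1.73 (SE 0.101, adjusted p = 5.73e-64). *Efnb1*, the member of the ephrin–Eph system with the highest level per kilobase in Brain-NSC, had 18.6 to 74.9 CPM in NSC and pNSC samples and was called in none of the 5 comparisons of pNSCs with brain NSCs. *Efna3*, another A-class ephrin, was higher in Sox2-GFP lung pNSCs (4.40 to 4.90 CPM) than in their brain NSCs (1.45 to 2.18 CPM, log2 fold change 1.30, SE 0.175, adjusted p = 2.88e-13).

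In the Slit–Robo system, *Robo1* and *Robo2*, the main neuronal receptors of Slits, were at 74.2 to 167 and 54.4 to 269 CPM in the NSC and pNSC samples. NCSCs held less than any of these, with 16.7, 15.9 and 12.8 CPM of *Robo1* and 30.98, 29.4 and 24.5 CPM of *Robo2*. *Robo1* differed between NCSCs and brain NSCs by a log2 fold change of -2.55 (SE 0.0788, adjusted p = 3.14e-15). *Robo2* was at 264, 264 and 269 CPM in Wnt1Cre-mTmG tail pNSCs against 57.2, 57.8 and 54.4 CPM in their brain NSCs (log2 fold change 2.22, SE 0.0567, adjusted p = 1.29e-15). *Robo3*, known from commissural neurons, stayed at or below 2.66 CPM in NSC and pNSC samples. Within that range it was higher in tail pNSCs (2.66, 2.05 and 2.59 CPM, log2 fold change 2.40, SE 0.373, adjusted p = 2.25e-05) and DRG pNSCs (1.94, 1.67 and 1.05 CPM, 1.79, SE 0.445, adjusted p = 0.00326) than in Wnt1Cre-mTmG brain NSCs (0.267, 0.289 and 0.759 CPM). *Robo4*, the endothelial member, was at 45.98 and 45.7 CPM in Tail and 131 and 124 CPM in Lung and at most 0.647 CPM in the other samples, alongside the endothelial markers given above.

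*Slit3*, a ligand made by mesenchyme and endothelium, was at 83.6 and 81.1 CPM in Tail, 169.5 and 162 CPM in Lung, and 11.4, 12.5 and 11.5 CPM in NCSCs. It was at or under 3 counts in each sample of Brain-NSC and of Wnt1Cre-mTmG brain NSCs. Both tail lines held it above that limit, at 1.16 and 1.68 CPM and at 1.90, 2.28 and 1.52 CPM, which is at least 9.61-fold (adjusted p = 8.75e-15) and at least 7.05-fold (adjusted p = 5.33e-07) higher than in their brain NSCs. Lung-pNSC held 0.474 and 0.785 CPM, at least 4.26-fold higher (adjusted p = 3.21e-06), and no count was found in any DRG pNSC library, which allows up to 0.294 CPM in the shallowest.

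*Slit1*, a ligand of the nervous system, was at 45.4, 46.2 and 46.1 CPM in Wnt1Cre-mTmG tail pNSCs and 21.04, 23.2 and 18.5 CPM in NCSCs. All other samples were at or below 8.53 CPM. Its log2 fold change in these tail pNSCs was 2.68 (SE 0.0989, adjusted p = 1.66e-13) against brain NSCs and 1.11 (SE 0.0750, adjusted p = 2.09e-10) against NCSCs. In Sox2-GFP lung pNSCs it was lower than in brain NSCs, at 1.38, 1.34 and 1.54 against 7.64, 8.53 and 8.12 CPM (-2.49, SE 0.159, adjusted p = 4.09e-54). In the first set, both calls of *Slit1* against tissue depended on the libraries used. That in Tail-pNSC (log2 fold change 1.08, adjusted p = 0.0397) was lost when each of its 4 libraries was left out in turn (adjusted p of 0.0649 to 0.201), and with all libraries by DESeq2 (adjusted p = 0.126) and with a replicate block (0.0566). That in Lung-pNSC (1.87, adjusted p = 0.00149) was lost without Lung-pNSC replicate 1 (0.0743) or Lung replicate 1 (0.0627). *Slit2*, known for midline repulsion, was lower in both lung lines than in their brain NSCs, at 4.07 and 3.03 against 8.12 and 8.46 CPM (-1.23, SE 0.155, adjusted p = 2.66e-14) and at 5.36 to 5.90 against 14.5 to 16.8 CPM (-1.42, SE 0.0906, adjusted p = 4.81e-54).

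In the netrin–Dcc–Unc5 system, attractant and receptor were high together in NSCs and pNSCs. *Ntn1* was at 299 to 736 CPM in the NSC and pNSC samples, 206 and 199.7 CPM in Lung, 119 and 119.9 CPM in Tail, and 72.4, 79.8 and 74.4 CPM in NCSCs. Its receptor *Dcc* was at 23.1 to 89.98 CPM in NSC and pNSC samples, 6.19 and 7.78 CPM in Tail, 1.73, 2.24 and 1.41 CPM in NCSCs, and 0.0531 and 0 CPM in Lung. Both genes were therefore lower in each NCSC and tissue sample than in each NSC and pNSC sample. In NCSCs against brain NSCs the log2 fold change was -2.07 (SE 0.0393, adjusted p = 3.32e-18) for *Ntn1* and -3.85 (SE 0.109, adjusted p = 8.70e-16) for *Dcc*. *Dcc* was at least 136-fold higher in Lung-pNSC and at least 245-fold higher in Sox2-GFP lung pNSCs than in Lung. Between pNSCs and brain NSCs both were higher in Wnt1Cre-mTmG tail pNSCs, by 1.18 (SE 0.0364, adjusted p = 1.46e-14) and 1.35 (SE 0.0654, adjusted p = 7.00e-12). *Dcc* differed by -1.02 (SE 0.0391, adjusted p = 1.43e-148) in Sox2-GFP lung pNSCs, a value at the fold threshold that was -0.998 without Sox2-GFP brain NSC replicate 3 and -0.99 without Sox2-GFP lung pNSC replicate 3, and -0.996 with all libraries and no filter on low counts, and was then not called.

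*Ntn4*, a netrin of basement membranes, was lower in the pNSCs of the Wnt1Cre-mTmG line, at 27.2, 28.6 and 28.8 CPM in tail and 22.2, 24.4 and 23.4 CPM in DRG against 99.6, 99.1 and 96.1 CPM in brain NSCs. The log2 fold changes were -1.82 (SE 0.0491, adjusted p = 2.54e-15) and -2.07 (SE 0.0546, adjusted p = 7.33e-15). In the first set Tail-pNSC held 79.3 and 81.4 CPM and Brain-NSC 70.99 and 66.4 CPM. *Ntn3* was higher in Tail-pNSC (1.19, SE 0.112, adjusted p = 3.88e-25) and Lung-pNSC (1.47, SE 0.108, adjusted p = 1.13e-40) than in Brain-NSC, and its counts are uncertain because it overlaps *Tbc1d24* on the same strand.

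The Unc5 receptors, which turn netrin signals to repulsion, moved in both directions. *Unc5b* was higher in both tail lines than in their brain NSCs, at 34.5 and 32.7 against 13.4 and 13.5 CPM (1.29, SE 0.0785, adjusted p = 3.16e-59) and at 30.8 to 34.4 against 13.2 to 15.9 CPM (1.11, SE 0.0805, adjusted p = 1.61e-09). *Unc5c* was lower in both, at 0.927 and 0.764 against 2.71 and 2.61 CPM (-1.68, SE 0.297, adjusted p = 6.90e-08) and at 2.48 to 2.84 against 5.65 to 8.11 CPM (-1.33, SE 0.152, adjusted p = 5.80e-07). *Unc5d* was lower too, at least 4.67-fold in Tail-pNSC and by -1.72 (SE 0.298, adjusted p = 7.22e-05) in the Wnt1Cre-mTmG tail line. In DRG pNSCs, *Unc5a* rose to 26.7, 32.7 and 27.6 CPM against 4.46, 5.01 and 3.88 CPM in brain NSCs (2.71, SE 0.120, adjusted p = 7.31e-12), and *Unc5d* was at least 6.17-fold lower (adjusted p = 1.49e-06).

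**Figure D4:**
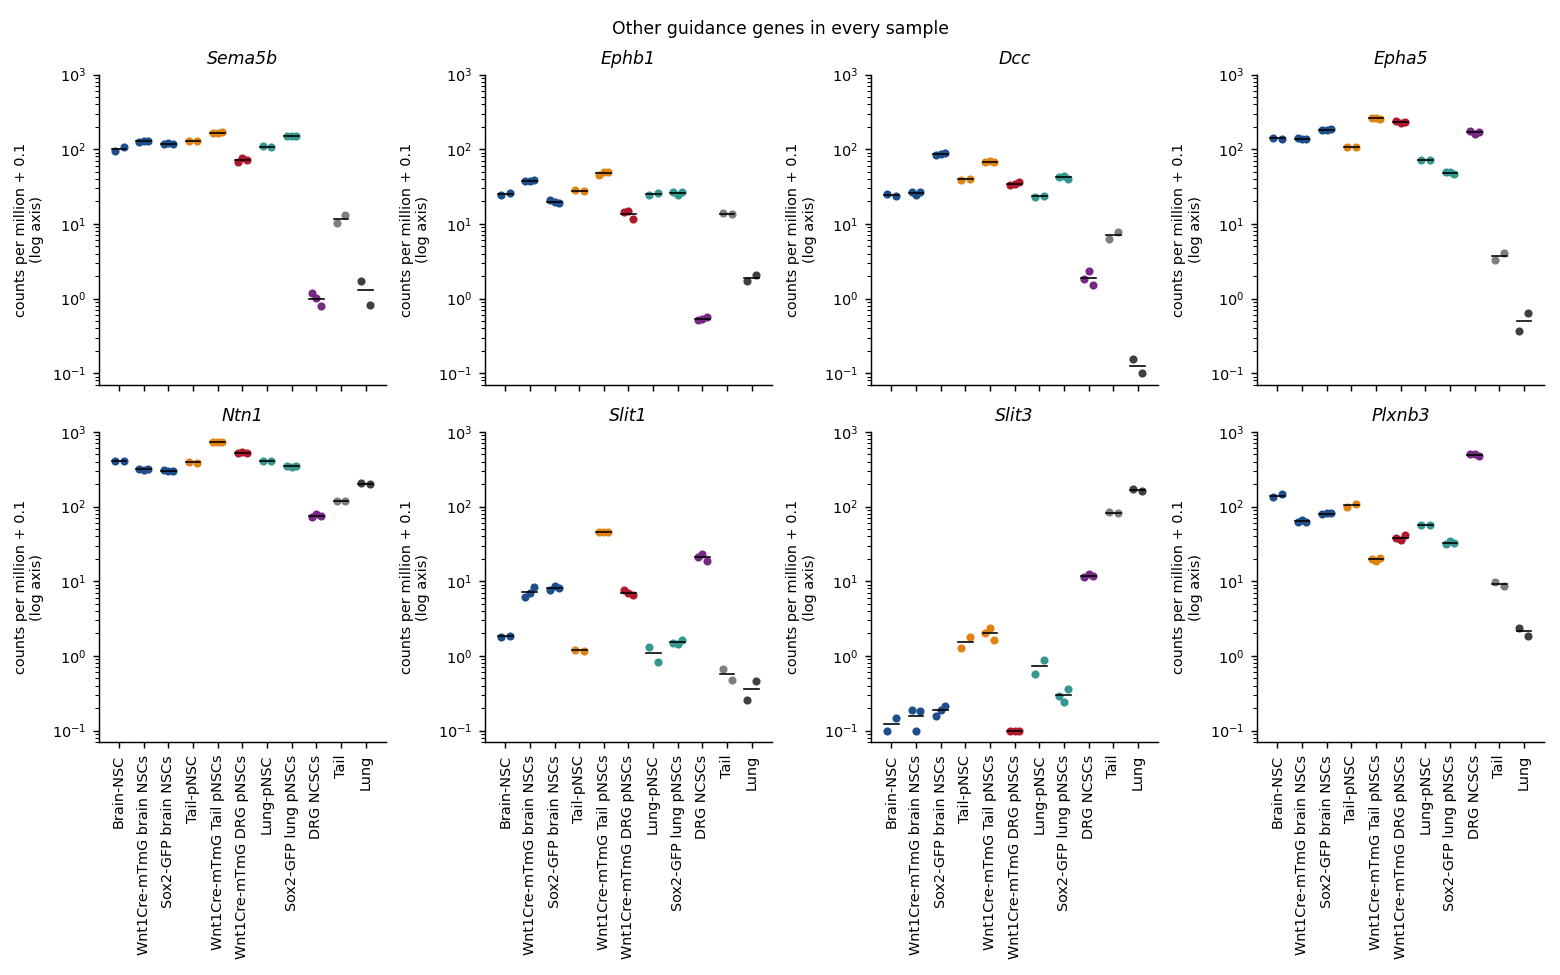
Level of 8 members in each sample (points; lines are group means) as CPM + 0.1 on a log axis, by group. *Sema5b*, *Ephb1*, *Dcc* and *Ntn1* are lowest in NCSCs or Lung, *Epha5* is low in Tail and Lung, *Slit1* is highest in Wnt1Cre-mTmG tail pNSCs, *Slit3* in Lung, and *Plxnb3* in NCSCs.

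The pair of tail comparisons and the pair of lung comparisons each used different brain NSC samples, so that their calls can be set side by side. For tail, 5 members were higher in both lines (*Efna1*, *Epha3*, *Nrp2*, *Slit3* and *Unc5b*), which is 62.5% of the 8 of the first set and 25% of the 20 of the Wnt1Cre-mTmG set (38.4% and 21.2% over all genes called). Another 3 were lower in both (*Sema6b*, *Unc5c* and *Unc5d*, 60% of 5 and 37.5% of 8, against 34.3% and 29.3% over all genes). *Sema3g* was called in opposite directions, at least 1.20-fold lower in Tail-pNSC (adjusted p = 0.0365) and at least 3.76-fold higher in Wnt1Cre-mTmG tail pNSCs (adjusted p = 0.000297), at no more than 1.27 CPM in any of these samples. The first of these calls was lost without Tail-pNSC replicate 2 (adjusted p = 0.296) and without Brain-NSC replicate 2 (0.187), and with all samples by DESeq2 (0.116). For lung, no member was higher in both lines, of 7 and 4, where 21.5% and 17.8% of all genes called were shared, and 6 members were lower in both (*Efna1*, *Ephb6*, *Plxna4*, *Plxnb3*, *Sema3c* and *Slit2*, 85.7% of 7 and 46.2% of 13, against 40.0% and 17.3% over all genes). Whether the members differ from all genes in this was not tested. Line and set cannot be told apart, and for lung the age of the mice may differ between the sets as well.

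The difference of the pNSC effect between the sets was tested in a single fit of all 28 samples, in which 67 members were tested. The effect in tail was higher in the Wnt1Cre-mTmG set for 14 members and lower for 6 (8.96% and 7.05% of all genes). Among the former were *Slit1* (difference of log2 fold changes 3.37, SE 0.301, adjusted p = 4.20e-12), *Robo2* (2.65, SE 0.0730, adjusted p = 2.91e-27) and *Robo3* (2.36, SE 0.654, adjusted p = 0.00262) of the Slit–Robo system. The effect in lung was higher in the Sox2-GFP set for 4 members and lower for 15 (5.89% and 8.24% of all genes). The Eph receptors *Epha3* (-3.49, SE 0.602, adjusted p = 6.31e-06) and *Epha4* (-2.27, SE 0.0803, adjusted p = 1.11e-23) were among the latter. In the Sox2-GFP set, 6 neural crest and Schwann cell markers summed to 136 to 139 CPM in brain NSCs and 27.8 to 29.0 CPM in lung pNSCs, and their part in the result was not tested.

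**Figure D5:**
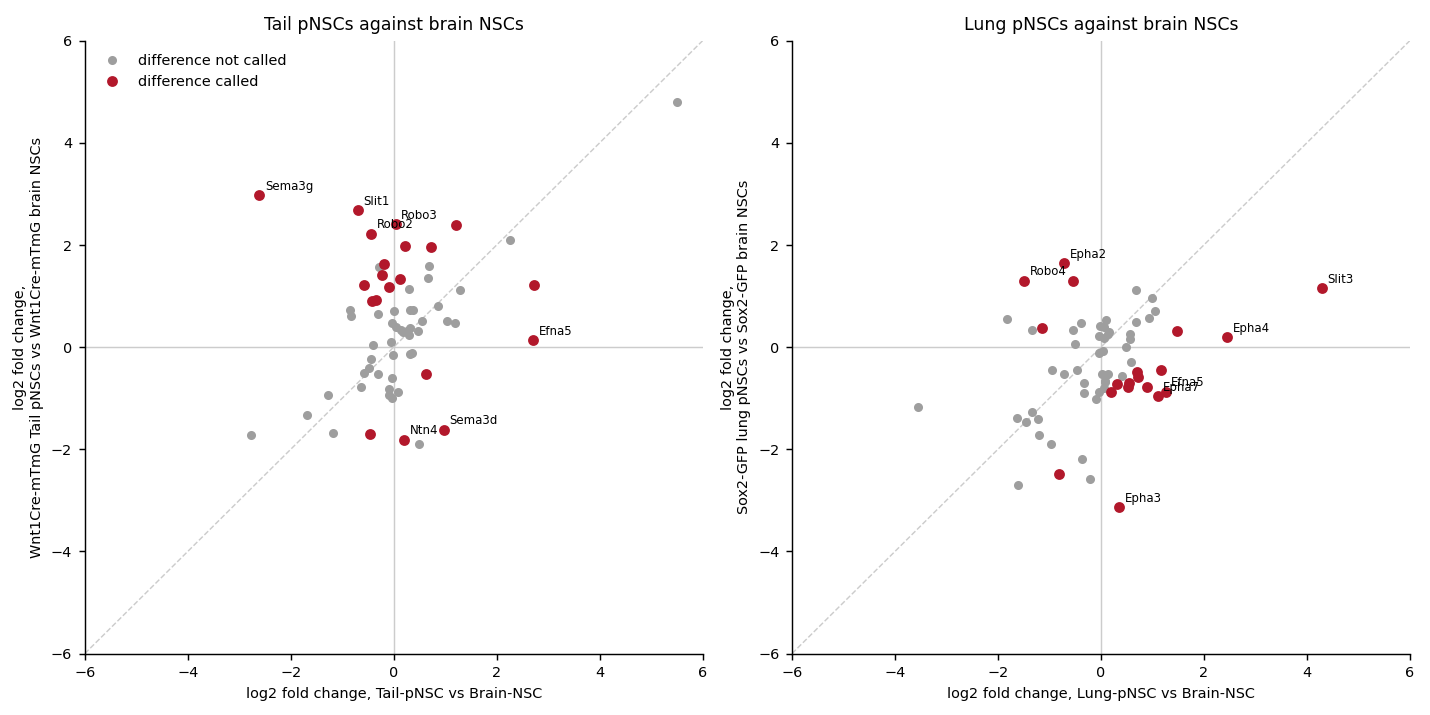
Log2 fold change of each member in pNSCs against brain NSCs in the first set (horizontal) and in the Wnt1Cre-mTmG or Sox2-GFP set (vertical), for tail (left) and lung (right). Each point is 1 member, the dashed line marks equal values, and red points are the 20 tail and 19 lung members whose values differed between sets by the test of the difference, with symbols on those farthest from the line.

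Genes that work beside these systems were called in both directions, and the shares of all genes given above apply to them. Of 22 other guidance cues and receptors, 9 were higher and 6 lower in Lung-pNSC than in Lung (42.9% and 28.6% of the 21 tested, against 20.2% and 34.9% of all genes). In Sox2-GFP lung pNSCs against Lung 12 were higher and 6 lower (54.5% and 27.3%, against 21.3% and 34.9%), and in Tail-pNSC against Tail 6 and 9 (28.6% and 42.9%, against 14.1% and 32.6%). In NCSCs against brain NSCs 5 were higher and 9 lower (22.7% and 40.9%, against 22.1% and 14.8%). Between pNSCs and brain NSCs, at most 5 were higher and at most 5 lower in any comparison. The 5 higher were in Wnt1Cre-mTmG tail pNSCs (22.7%, against 9.16%). Tail-pNSC (23.8%, against 6.59%) and Sox2-GFP lung pNSCs (22.7%, against 9.99%) each had 5 lower. Lung-pNSC had 3 higher and 0 lower (14.3% and 0%, against 4.56% and 4.15%). *L1cam*, an adhesion molecule of axons that partners with neuropilin 1, was at 559 ± 64.5 CPM in NCSCs (SD, n = 3) against 0.568 ± 0.0292 CPM in brain NSCs (log2 fold change 9.92, SE 0.131, adjusted p = 2.55e-20). *Draxin*, a secreted ligand of Dcc, was at 1.29 ± 0.204 CPM in NCSCs against 25.7 ± 0.317 CPM in brain NSCs (-4.30, SE 0.0989, adjusted p = 4.61e-17), the same direction as *Dcc* itself. Of 46 intracellular effectors, 15 were higher and 7 lower in NCSCs than in brain NSCs (32.6% and 15.2%, against 22.1% and 14.8% of all genes), and 13 were higher and 14 lower in Lung-pNSC than in Lung (28.3% and 30.4%, against 20.2% and 34.9%). Their share lower in NCSCs was thus near that of all genes. Between pNSCs and brain NSCs, at most 8 of the 46 were higher and at most 9 lower in any of the 5 comparisons. The 8 were in Wnt1Cre-mTmG tail pNSCs (17.4%, against 9.16% of all genes) and the 9 in Sox2-GFP lung pNSCs (19.6%, against 9.99%). *Fyn*, a kinase downstream of Dcc and plexins, was at 168 ± 9.39 CPM in NCSCs against 590.2 ± 1.29 CPM in brain NSCs (-1.82, SE 0.0374, adjusted p = 9.70e-18). These 3 examples were chosen after their values were seen.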

How the data were processed

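RNA-seq counts of 28 samples were analysed. Single-end reads had been mapped by the authors with HISAT2 (GRCm38) and assigned to genes by htseq-count, and the deposited values are raw counts without normalization. Strand setting, counting mode and annotation release are not given in the sources used here, and 23 members overlap another gene on the same strand and 31 on the opposite strand (GENCODE M21), which limits their counts. Groups were taken from the labels. Each set was filtered with filterByExpr (minimum count 10, minimum total 15), scaled by TMM and fitted over all its groups with edgeR 4.0.16 (quasi-likelihood, two-sided, Benjamini–Hochberg over 16948, 14448 and 16234 genes in the first, Wnt1Cre-mTmG and Sox2-GFP sets) in R 4.3.3. The difference between sets was an interaction over 17393 genes. Each SE is the size of the log2 fold change divided by the square root of the test's F statistic. Fold changes against a group at or under 3 counts per library were computed against 3 counts. An adjusted p too small for the software is left out. The fits were tested on simulated data. Members, lists and tests were chosen with earlier results of these data known. Named genes are those called alike in both tail or both lung lines or in opposite directions, the 2 largest rises and falls per comparison (no overlap of samples, higher mean at least 1 CPM), the member of highest level per kilobase of each system in Brain-NSC, *Dcc*, Slits and Robos. Alternatives were DESeq2 1.42.0, upper-quartile scaling, no filter, a stricter filter (mean count 100), a fit of the compared groups only, a replicate block and leaving out each library.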

Additional observations from a re-analysis of the deposited data

Results flagged for a closer look

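The effect of pNSCs against brain NSCs differed between the sets of samples for several named members, by the interaction term of the fit over all 28 samples (edgeR, adjusted p under 0.05 and an absolute difference of at least 1 on the log2 scale). For tail, 20 members differed. The difference, Wnt1Cre-mTmG set minus first set, was 5.58 for *Sema3g*, 3.37 for *Slit1*, 2.65 for *Robo2*, 2.36 for *Robo3*, 1.81 for *Plxna4*, 1.31 for *Epha5*, 1.27 for *Ntn1*, 1.26 for *Epha4* and 1.18 for *Nrp2*. It was -2.02 for *Ntn4*, -1.51 for *Epha3* and -1.26 for *Plxnb3*. *Sema3g* was at or under 3 counts in several of these libraries, so its value depends on the prior count. *Nrp2* and *Epha3* were higher than in brain NSCs in both tail lines, and differed in size.

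For lung, 19 members differed. The difference, Sox2-GFP set minus first set, was 2.78 for *Robo4*, 2.35 for *Epha2*, 1.84 for *Efna3* and 1.51 for *Unc5b*. It was -3.49 for *Epha3*, -3.14 for *Slit3*, -2.27 for *Epha4*, -2.08 for *Epha7*, -1.69 for *Slit1*, -1.68 for *Unc5c*, -1.17 for *Ntn3* and -1.03 for *Robo1*. *Robo4* and *Slit3* were near the limit of detection in these cells, and *Ntn3* shares a locus with *Tbc1d24*. No cause of these differences was tested.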

How the results depend on the processing

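No count of members called, differing between sets or detected moved by 1.5 times or more under any alternative run (183 values), and none of the 244 called values of named genes reversed. Of these, 230 kept direction and call under every alternative and 14 lost the call under at least 1. Lost calls not given above were *Robo4* in Tail-pNSC and Sox2-GFP lung pNSCs against brain NSCs, *Epha1* in Wnt1Cre-mTmG tail pNSCs and *Sema4f* in DRG pNSCs against brain NSCs, and *Epha7* and *Robo3* in Sox2-GFP lung pNSCs and *Unc5a* in Lung-pNSC against Lung. The deviations of same-numbered samples from their group means had correlations of -0.0136 to 0.0979 (n = 28 values, which repeat by construction in the first set). Such low correlations cannot exclude that samples are paired. The study reports that most controls were brain NSCs taken from the same mice as the pNSCs. Which samples share a mouse is not given in the sources used here. With the replicate block, the members called were 51 in place of 52 in Tail-pNSC against Tail and in Sox2-GFP lung pNSCs against Lung, and 13, 14, 55, 28, 12, 46, 42, 46 and 17, as without it, in the other comparisons. Leaving out libraries was not run for the difference between sets. Depth limits genes near 3 counts, 0.131 to 0.294 CPM, where bounds take 3 counts as the smallest detectable amount and do not cover the spread between samples.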
